A study of Bos taurus with 6 samples.

Results

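Signals of the TGF-beta superfamily are read through pairs of membrane kinases. A ligand brings together type II and type I receptors, the type I receptor phosphorylates a receptor-activated SMAD, and that SMAD joins the common partner SMAD4 and enters the nucleus to change transcription. TGF-beta, activin and nodal act through SMAD2 and SMAD3, bone morphogenetic proteins (BMPs) act through SMAD1, SMAD5 and SMAD9, and the inhibitory SMAD6 and SMAD7, themselves induced by the pathway, turn the receptors down. In early embryos nodal and activin signals are known for their role in the epiblast, and BMP signals for roles in the extraembryonic lineages.

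The genes described here are 10 receptors and SMADs of this pathway in bovine blastocysts, found in the deposited table by an exact match of the gene symbol. Each of the 10 had 1 row among the 36075 genes listed. The receptors were the type I receptors TGFBR1, ACVR1B and BMPR1A and the type II receptors TGFBR2 and ACVR2A, and the SMADs were SMAD2, SMAD3, SMAD4, SMAD5 and SMAD7.

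MT-treated blastocysts came from slaughterhouse oocytes matured in vitro for 22 h with melatonin (MT) at 1e-07 mol/L, and control blastocysts came from oocytes matured without MT. MT was given to the oocyte and its cumulus cells during maturation, and both groups were then fertilized and cultured alike. Each group had 3 libraries, called pools here because each was made from 3 blastocysts, so single embryos and cell lineages were not resolved. The pools of a group came from separate in vitro production runs. Per the methods the treatments ran side by side on oocytes of the same collection, so a control and an MT-treated pool can share a run, but which pools do is not given. The labels name a TruSeq kit and the methods Smart-seq2, and the chemistry behind the values is therefore uncertain.

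Values were in TPM, transcript abundance scaled to gene length and library size, so that levels of different genes can be compared within a library. TPM keeps no counts, and the sequencing depth of each library was not used here, so no counting error is given. The number of genes above 0 was 8854 to 8953 in the control pools and 14372 to 14408 in the MT-treated pools. Of the 11953 genes tested, each at 1 TPM or more in 3 or more pools, 33.8% were listed at 0 in every control pool. An entry of 0 may mean absent RNA or reads that were missed in capture or counting, and the zeros of the control pools include widely expressed genes such as CREBBP. Whether capture or counting differed between the groups cannot be told from TPM, and every sum and share below rests on these zeros as listed. No fold is given here against a group listed at 0. In a whole blastocyst, fewer cells of a type and less RNA per cell cannot be told apart.

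The blastocyst label was checked against marker genes. The trophectoderm keratin KRT8 had 8541 to 8828 TPM in control and 6756 to 7009.6 TPM in MT-treated pools, and the pluripotency factor POU5F1 had 188 to 191 TPM and 190.6 to 194 TPM. The trophectoderm factor CDX2, the epiblast factor NANOG and the hypoblast receptor PDGFRA were listed at 0 in every control pool. These markers had 15.03 to 17.2, 8.23 to 8.93 and 22.5 to 24.2 TPM, respectively, in the MT-treated pools. The summed level of 6 hypoblast markers, carried by FN1, was 223 to 226 TPM in control and 545 to 547 TPM in MT-treated pools. That of 5 inner cell mass markers was 381 to 383 and 366 to 369 TPM, although SOX2, NANOG and KLF4 were higher, because SPIC fell from a mean of 174 to 76.0 TPM. That of 8 trophectoderm markers was 11501 to 11848 and 10672 to 11022 TPM, a drop carried by KRT8, while 6 of the 8 were higher. Of 9 cumulus and granulosa markers, 5 were listed at 0 in all 6 pools, among them HAS2, PTX3 and TNFAIP6, while the sum of the list, carried by HSD3B1 and FSHR, was 149.9 to 157 TPM in control and 121 to 123 TPM in MT-treated pools. Of 7 maternal oocyte markers 4 were at 0 in all 6 pools, and the sum, carried by OOEP, was 45.6 to 49.3 and 21.3 to 23.3 TPM. The part of these shifts in the results on receptors and SMADs was not tested.

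Of the 10 genes, 4 were higher in MT-treated blastocysts, 2 were lower and 4 were listed at 0 in all 6 pools. BMPR1A, SMAD2, SMAD5 and SMAD7 rose, and TGFBR1 and SMAD4 fell. The 6 genes that could be tested all had an adjusted p-value under 0.05 (limma on log2(TPM + 1) with Benjamini-Hochberg adjustment over all tested genes), with a difference of at least 1 on that scale, which for SMAD2 and SMAD5 is no fold, as they were at 0 in control pools. Across all tested genes 95.7% were called, 61.6% as higher and 34.1% as lower, and differences of at least 1 were seen upward in 51.0% and downward in 19.6%. A share of this size among the receptors and SMADs is therefore near the background. The groups did not overlap for any of the 6 genes, as was so for 96.1% of all tested genes, and an exact two-sided permutation test gave p = 0.1 for each, the smallest p-value that 3 pools against 3 allow. The median difference on the log2(TPM + 1) scale was 3.11 for the 6 genes and 1.12 for all tested genes, and neither is a fold, since both include genes at 0 in control pools. Only SMAD4 and SMAD7 of the 6 had at least 1 TPM in all pools. The other 4 passed the filter through the group in which they were high, so a difference was built into their selection.

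**Figure D1:**
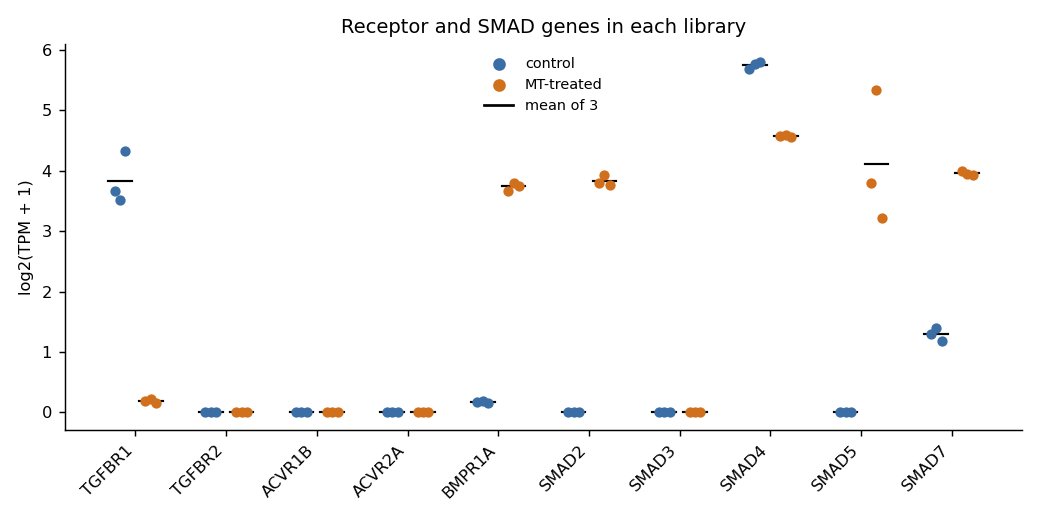
Level of each of the 10 receptor and SMAD genes, as log2(TPM + 1) on the vertical axis, in the 3 control pools (blue points) and the 3 MT-treated pools (orange points), with black bars for the mean of 3. TGFBR1 and SMAD4 were lower in MT-treated pools, BMPR1A, SMAD2, SMAD5 and SMAD7 were higher, and TGFBR2, ACVR1B, ACVR2A and SMAD3 lay at 0 in all 6.

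Among the type I receptors, TGFBR1 and BMPR1A changed in opposite directions. TGFBR1 (ENSBTAG00000018035), the type I receptor for TGF-beta, had 11.7, 10.4 and 19.2 TPM in the control pools and 0.14, 0.17 and 0.11 TPM in the MT-treated pools. All control values were above 10 TPM, and control replicate 3 was the highest. The mean fell from 13.8 ± 4.73 TPM to 0.14 ± 0.03 TPM (SD, n = 3 each) and dropped by 3.65 on the log2 scale (SE 0.21, limma adjusted p = 4.99e-06). With a pseudocount of 0.1 the log2 fold change was -5.81. Without control replicate 3 the control mean was 11.1 TPM. Only 6.45% of the genes above 0 in all MT-treated pools had a lower level there.

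BMPR1A (ENSBTAG00000000231), a type I receptor for BMPs, had 0.13, 0.14 and 0.12 TPM in the control pools. In the MT-treated pools it had 11.7, 12.9 and 12.5 TPM. The control values were close to 0 but present in every library, and the MT-treated values were close to the median of 12.1 TPM of the 13496 genes above 0 in all MT-treated pools. The log2 fold change was 3.56 (SE 0.04, limma adjusted p = 2.50e-09), and it was 0.66 after quantile normalization, which gives all pools the same distribution, and 5.76 with a pseudocount of 0.1. On the log2(TPM + 1) scale the changes of TGFBR1 and BMPR1A were larger in size than those of 89.8% and 89.2% of the tested genes that were above 0 in at least 1 library of each group. Genes at 0 in a whole group are outside this comparison. Both genes passed the filter only through the group in which they were high, so these ranks are descriptions.

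The other 3 receptors gave no value to compare. ACVR1B, a type I receptor for activin and nodal, TGFBR2, the type II receptor for TGF-beta, and ACVR2A, a type II receptor for activin, were listed at 0 in each of the 6 pools. Among all listed genes 54.8%, and among those with a symbol 43.6%, were at 0 throughout. SMAD3 was the fourth gene at 0 in all pools.

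SMAD4 (ENSBTAG00000006919), the common partner of all receptor-activated SMADs, was the highest of the 10 genes in both groups by its mean. It had 50.6, 53.2 and 54.96 TPM in the control pools and 22.8, 23.1 and 22.5 TPM in the MT-treated pools. The spread within each group was small beside the gap between them. The mean fell from 52.9 ± 2.20 TPM to 22.8 ± 0.270 TPM (SD, n = 3 each), a control level 2.32 times that of MT-treated blastocysts and a log2 fold change of -1.18 (SE 0.04, limma adjusted p = 1.71e-07). Of the tested genes above 0 in both groups, 51.3% had a smaller change. SMAD4 was higher than 67.7% of the genes above 0 in all control pools and than 67.4% of those above 0 in all MT-treated pools. Its median-centred log2 fold change was -0.70, after removal of a shift of -0.48 (MT-treated minus control) in the median of the genes at 1 TPM or more in all 6 pools.

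SMAD2 (ENSBTAG00000039916), which carries TGF-beta, activin and nodal signals, was at 0 in every control pool. In the MT-treated pools it had 12.9, 14.2 and 12.5 TPM (limma adjusted p = 3.52e-09). The MT-treated values were close together. SMAD3 (ENSBTAG00000012599), which acts on the same branch, was at 0 in both groups, so all TPM of this branch came from SMAD2 in MT-treated pools and none was listed in control pools.

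SMAD5 (ENSBTAG00000055062), which carries BMP signals, was also listed at 0 in every control pool. It had 12.8, 39.5 and 8.30 TPM in the MT-treated pools (limma adjusted p = 0.000328). MT-treated replicate 2 stood far above the other two, 4.76 times the lowest value. The coefficient of variation over the MT-treated pools was 83.4%, whereas the median was 5.61% over the 7033 genes of 5 to 50 TPM on average in that group, of which 45 varied more. The mean was 20.2 TPM with all 3 pools and 10.6 TPM without replicate 2, and the gene was called either way (limma adjusted p = 3.45e-05 without it). After quantile normalization it was not called (limma adjusted p = 0.0880). Of the 3374 tested genes of 10 to 25 TPM on average in MT-treated pools, a range that holds SMAD2 and SMAD5, 43.1% were listed at 0 in every control pool.

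SMAD7 (ENSBTAG00000012441), the inhibitor of both branches, had 1.47, 1.63 and 1.27 TPM in the control pools. In the MT-treated pools it had 14.9, 14.4 and 14.3 TPM. It rose from 1.46 ± 0.180 to 14.5 ± 0.314 TPM (SD, n = 3 each), 9.97 times the control level, with a log2 fold change of 2.66 (SE 0.06, limma adjusted p = 4.11e-08). After quantile normalization that log2 fold change was 0.66. SMAD7 and SMAD4, the pair above 1 TPM in all 6 pools, thus moved in opposite directions. The ratio of SMAD7 to SMAD4, in which a scaling factor common to a library cancels, was 0.0291, 0.0307 and 0.0231 in the control pools and 0.654, 0.624 and 0.635 in the MT-treated pools.

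**Figure D2:**
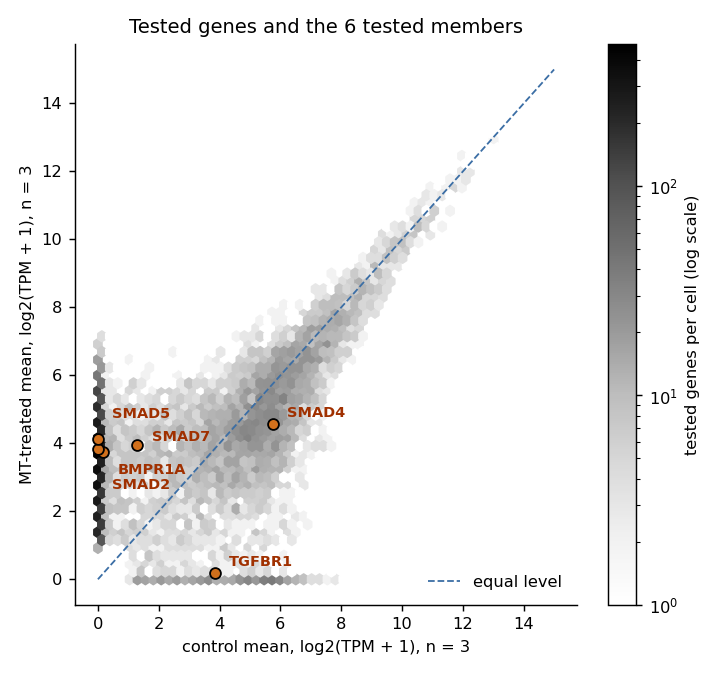
Mean of 3 control pools (horizontal axis) against mean of 3 MT-treated pools (vertical axis), both as log2(TPM + 1), for the 11953 tested genes, with grey shade for the number of genes on a log scale, the 6 tested receptor and SMAD genes in orange and a dashed line for equal levels. SMAD2, SMAD5 and, at 0.13 TPM, BMPR1A lie on or beside the column of genes at 0 in control, SMAD4 lies below the line among genes present in both groups, and TGFBR1 lies just above the row of genes at 0 in MT-treated pools.

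The order of the 10 genes by level differed between the groups. In control pools SMAD4 was followed by TGFBR1, SMAD7 and BMPR1A, and no neighbours in that order overlapped. In MT-treated pools the order of the means was SMAD4, SMAD5, SMAD7, SMAD2, BMPR1A and TGFBR1. There SMAD5 overlapped SMAD4, SMAD7, SMAD2 and BMPR1A, and its mean without replicate 2, 10.6 TPM, was below those of the latter 3, so it has no place in the order. SMAD2 overlapped BMPR1A, while SMAD7 lay above SMAD2 and BMPR1A lay above TGFBR1 without overlap.

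TGFBR1 and SMAD5 were also set apart by the spread between replicates. The coefficient of variation of TGFBR1 over the control pools was 34.4%, higher than that of 98.5% of the 3186 genes with a control mean of 5 to 50 TPM, whose median was 3.70%. In MT-treated pools SMAD4 varied by 1.19%, SMAD7 by 2.16%, BMPR1A by 4.78% and SMAD2 by 6.44%. In the RefSeq annotation of assembly ARS-UCD2.0, in which all 10 symbols were found, TGFBR1 overlaps a pseudogene, SMAD2 overlaps a protein-coding locus with no assigned name and SMAD4 overlaps a small nuclear RNA gene. SMAD5 had no overlapping gene there. This assembly differs from the builds named for the alignment. Whether reads were assigned by strand and how reads in such overlaps were counted are not given in the sources used here. Any part of the overlaps in these levels or spreads was not tested.

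The 10 genes were then placed among their paralogs. Of 7 type I receptors, only TGFBR1 and BMPR1A were above 0 in all control pools, and TGFBR1 made up 98.9%, 98.7% and 99.4% of their summed TPM. In MT-treated pools TGFBR1 made up 0.319%, 0.338% and 0.256% and BMPR1A 26.7%, 25.6% and 29.0%. Most of the remainder was ACVR1, another type I receptor for BMPs and activins, which was listed at 0 in control pools and had 31.8, 37.1 and 30.2 TPM in MT-treated pools (limma adjusted p = 6.64e-09). ACVRL1 had 0.27, 0.21 and 0.23 TPM in MT-treated pools and 0 in control pools, below the level for testing. ACVR1C and BMPR1B were at 0 in all 6. The summed TPM of the type I receptors was 13.9 ± 4.72 in control pools and 45.8 ± 3.99 in MT-treated pools (SD, n = 3 each). Over the 5 receptors of the list alone it was 13.9 ± 4.72 and 12.5 ± 0.603 TPM, a similar total made up by TGFBR1 in control and by BMPR1A in MT-treated pools. That similarity was lost after quantile normalization, with 18.8 and 4.82 TPM.

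With TGFBR2, ACVR2A and AMHR2, the receptor for anti-Muellerian hormone, at 0 in all 6 pools, the type II receptors above 0 were ACVR2B and BMPR2. ACVR2B, a type II receptor for activin and nodal, was the only type II receptor above 0 in control pools, with 2.37, 2.82 and 2.69 TPM. It had 9.43, 8.35 and 8.42 TPM in MT-treated pools, a log2 difference of 1.42 (SE 0.07, limma adjusted p = 1.74e-06), which turned to -1.20 after quantile normalization. BMPR2, a type II receptor for BMPs, was at 0 in control pools and had 14.8, 12.1 and 16.6 TPM in MT-treated pools (limma adjusted p = 9.92e-08). Its summed TPM with ACVR2B was 2.63 ± 0.232 in control pools and 23.2 ± 2.44 in MT-treated pools (SD, n = 3 each).

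SMAD1, SMAD6 and SMAD9 complete the family. SMAD1, which shares the BMP branch with SMAD5, was the only receptor-activated SMAD above 0 in control pools, with 2.39, 2.87 and 2.94 TPM. It rose to 26.98, 20.6 and 18.8 TPM in MT-treated pools, a log2 difference of 2.62 (SE 0.14, limma adjusted p = 3.17e-06). After quantile normalization the log2 difference of SMAD1 was 1.52. SMAD6, the inhibitor that acts mainly on the BMP branch, was at 0 in control pools and had 14.9, 12.3 and 14.3 TPM in MT-treated pools (limma adjusted p = 1.58e-08), values close to those of SMAD7. SMAD9 was at 0 in all 6 pools.

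The make-up of the SMAD pool differed between the groups. SMAD4 made up 92.9%, 92.2% and 92.9% of the summed TPM of the 8 SMADs in control pools and 21.6%, 18.6% and 24.8% in MT-treated pools. Receptor-activated SMADs made up 4.39%, 4.98% and 4.97% in control and 50.1%, 59.9% and 43.7% in MT-treated pools, and inhibitory SMADs 2.7%, 2.83% and 2.15% and 28.3%, 21.5% and 31.5%. The SMAD4 level was 19.5 ± 1.48 times the summed level of the receptor-activated SMADs in control and 0.437 ± 0.129 times in MT-treated blastocysts (SD, n = 3 each). The summed TPM of all 8 was 57.1 ± 2.41 and 107 ± 16.6 (SD, n = 3 each), and the spread of the latter came mostly from SMAD5, which made up 65.8% of SMAD1 and SMAD5 in MT-treated replicate 2 and 32.2% and 30.6% in the others. Over the 5 SMADs of the list alone the sum was 54.4 TPM in control and 70.7 TPM in MT-treated pools. After quantile normalization it was 54.4 and 53.4 TPM, so that difference was lost. These sums and shares are descriptions and were not tested.

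**Figure D3:**
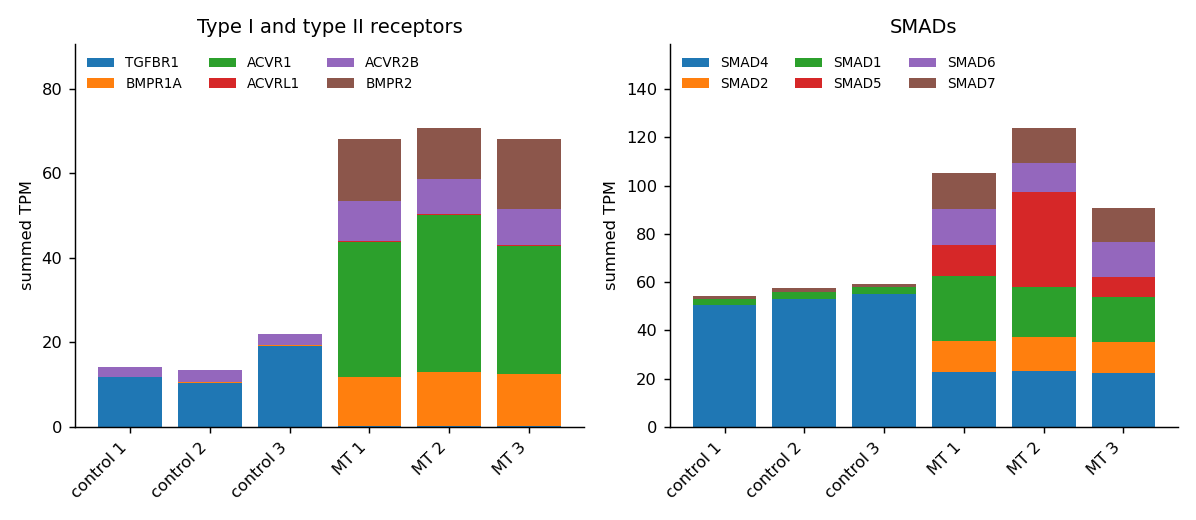
Summed TPM of the type I and type II receptors above 0 in at least 1 library (left) and of the SMADs above 0 in at least 1 library (right), stacked by gene, for each control and MT-treated pool. TGFBR1 makes up nearly the whole type I share and SMAD4 over 92% of the SMAD bar in control pools, whereas ACVR1, BMPR1A, BMPR2 and ACVR2B and a mixture of 6 SMADs make up the bars of MT-treated pools, with the tall SMAD5 block in replicate 2.

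The other genes of the pathway were collected in 7 lists by role, with 142 rows in the table apart from the 10 genes. Of these 142 rows, 50 were at 0 in all 6 pools, 20 were below the level for testing and 72 were tested. Of the 72, 51 were higher (30 of them at 0 in every control pool) and 21 were lower in MT-treated blastocysts, with a median difference of 1.63 on the log2(TPM + 1) scale beside 1.12 for all tested genes. Over all tested genes 61.6% were higher, 34.1% were lower and 33.8% were at 0 in every control pool, and the counts in each list stand against these shares. After quantile normalization 31 were higher and 36 lower, while over all tested genes 7367 higher and 4071 lower turned to 5550 and 5311, so that this turn was not limited to the lists. Of the 15 pathway genes called in the reverse direction, 6 were at 0 in every control pool (RGMB, THBS1, SKIL, TAB2, ZFYVE16 and TGFBRAP1). This normalization gives a positive value to a 0 in control, 1.11 on the log2(TPM + 1) scale for SMAD2, and it also lowered SMAD2 in each MT-treated pool, to 2.72, 3.08 and 2.58 on that scale. Median centring gave 51 higher and 21 lower in the lists and 8412 higher and 3038 lower over all tested genes.

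Most ligands were not seen. Of 30 ligand genes, 20 were at 0 in all 6 pools, including BMP2, BMP4, BMP7 and the inhibin alpha gene INHA, and 5 more were below the level for testing, including TGFB1 and the activin subunits INHBA and INHBB. Of the 5 tested, 3 were higher and 2 lower under every scaling. GDF3, a nodal-related ligand of pluripotent cells, had 69.8, 66.3 and 70.2 TPM in control and 8.44, 8.36 and 8.95 TPM in MT-treated pools, a log2 difference of -2.86 (SE 0.04, limma adjusted p = 4.04e-09). NODAL was at 0 in control pools and had 9.64, 8.35 and 9.56 TPM in MT-treated pools. BMP6 had 0.17, 1.3 and 0 TPM in control and 19.7, 22.3 and 20.4 TPM in MT-treated pools, and TGFB3 was at 0 in control pools and had 13.3, 15.1 and 19.3 TPM in MT-treated pools. GDF15, a stress-induced member of the family, had 16.1, 15.1 and 16.3 TPM in control pools and 0 in each MT-treated pool.

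All 6 tested receptors and co-receptors outside the 10 genes were higher in MT-treated blastocysts, 4 of them from 0 in every control pool, but 4 were higher and 2 lower after quantile normalization. With 61.6% of all tested genes higher and few genes in the list, nothing particular to receptors is read from this count. TGFBR3, the co-receptor betaglycan that presents TGF-beta to its receptors, had 0.62, 1.3 and 1.69 TPM in control and 45.2, 42.3 and 44.0 TPM in MT-treated pools (log2 difference 4.38, SE 0.18, limma adjusted p = 8.78e-07). TGFBR3 and TGFBR1 thus changed in opposite directions.

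Outside the cell, 6 of 7 tested regulators were higher and 1 lower, and 10 of 21 were at 0 in all 6 pools, among them the antagonists NOG, CHRD and FST. LTBP1, which anchors latent TGF-beta, was at 0 in control pools and had 17.6, 10.5 and 8.19 TPM in MT-treated pools. PCSK6, a protease that cleaves nodal precursors, had 5.54, 8.04 and 5.04 TPM from 0, and decorin (DCN), a TGF-beta binding proteoglycan, 2.77, 6.40 and 7.11 TPM from 0. LRRC32, which holds latent TGF-beta at the cell surface, went the other way, with 14.99, 11.2 and 12.5 TPM in control pools and 0 in each MT-treated pool. After quantile normalization 1 regulator of this list was higher and 4 were lower, and LTBP1 and DCN were not called.

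SMAD partners and corepressors were split, with 9 higher and 5 lower of 14 tested, and 7 of each after quantile normalization. The histone acetyltransferases EP300 and CREBBP, coactivators of SMADs, moved apart. EP300 had 34.2, 35.2 and 35.1 TPM in control and 7.63, 8.14 and 8.09 TPM in MT-treated pools, a log2 difference of -2.00 (SE 0.03, limma adjusted p = 1.16e-08), while CREBBP was at 0 in control pools and had 17.2, 25.2 and 26.2 TPM in MT-treated pools. The log2 difference of EP300 was -3.48 after quantile normalization and -1.52 after median centring. The corepressor SKI fell from 14.3 ± 0.811 TPM to 3.76 ± 0.209 TPM (SD, n = 3 each), and the transcription cofactor SNW1 fell from 131 ± 1.77 TPM to 46.9 ± 2.32 TPM (SD, n = 3 each). RUNX1, a SMAD-binding transcription factor, and ZNF423, a partner of SMADs of the BMP branch, were at 0 in control pools and had 31.5, 37.3 and 36.8 TPM and 29.0, 26.5 and 25.5 TPM in MT-treated pools.

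Of 26 tested regulators of receptors and SMADs inside the cell, 17 were higher and 9 lower, which turned to 9 higher and 15 lower after quantile normalization, where 3 of the 6 reversed genes were at 0 in every control pool. The deubiquitinases USP4 and USP15, both of which stabilise TGFBR1, moved apart. USP4 had 1.10, 1.16 and 0.89 TPM in control and 48.3, 46.3 and 48.1 TPM in MT-treated pools (log2 difference 4.57, SE 0.06, limma adjusted p = 3.23e-09), and USP15 had 81.3, 88.8 and 82.3 TPM in control and 37.0, 36.6 and 32.7 TPM in MT-treated pools (log2 difference -1.22, SE 0.06, limma adjusted p = 1.87e-06). MAP3K7, the kinase TAK1 of the SMAD-independent branch, fell from 38.8 ± 0.834 TPM to 4.84 ± 0.464 TPM (SD, n = 3 each) and dropped by 2.77 on the log2 scale (SE 0.06, limma adjusted p = 3.83e-08). PPP1R15A, a phosphatase subunit that SMAD7 recruits to TGFBR1, had 2.27, 2.15 and 2.35 TPM in control and 0, 0 and 0.02 TPM in MT-treated pools. USP11, another deubiquitinase, and the phosphatase CTDSPL were at 0 in control pools and had 12.03, 11.8 and 12.04 TPM and 14.6, 16.6 and 17.6 TPM in MT-treated pools.

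Target genes, a list that also holds SMAD6 and SMAD7, were higher in 10 and lower in 4 of 14 tested, and higher in 7 and lower in 6 after quantile normalization. The ID genes, which encode inhibitors of differentiation and are induced by BMPs, divided into pairs. ID1 was at 0 in control pools and had 48.5, 47.4 and 52.6 TPM in MT-treated pools, and ID3 was at 0 and had 10.3, 9.06 and 9.09 TPM. ID2 had 62.0, 60.8 and 60.7 TPM in control and 8.28, 8.17 and 7.83 TPM in MT-treated pools, a log2 difference of -2.77 (SE 0.03, limma adjusted p = 1.77e-09), and ID4 had 29.9, 30.2 and 35.3 TPM in control and 0 in each MT-treated pool. ID2 and ID4 together made up all of the TPM of the 4 ID genes in control pools and 12.3%, 12.6% and 11.3% in MT-treated pools. Among targets of TGF-beta, the matricellular gene CCN2 rose from 0.393 ± 0.0493 to 22.7 ± 0.331 TPM (SD, n = 3 each). The cell cycle inhibitor CDKN1A fell from 12.4 ± 0.136 TPM to 3.8 ± 0.136 TPM (SD, n = 3 each) and dropped by 1.48 on the log2 scale (SE 0.03, limma adjusted p = 5.04e-08). Its log2 fold change was -2.89 after quantile normalization and -0.998 after median centring.

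**Figure D4:**
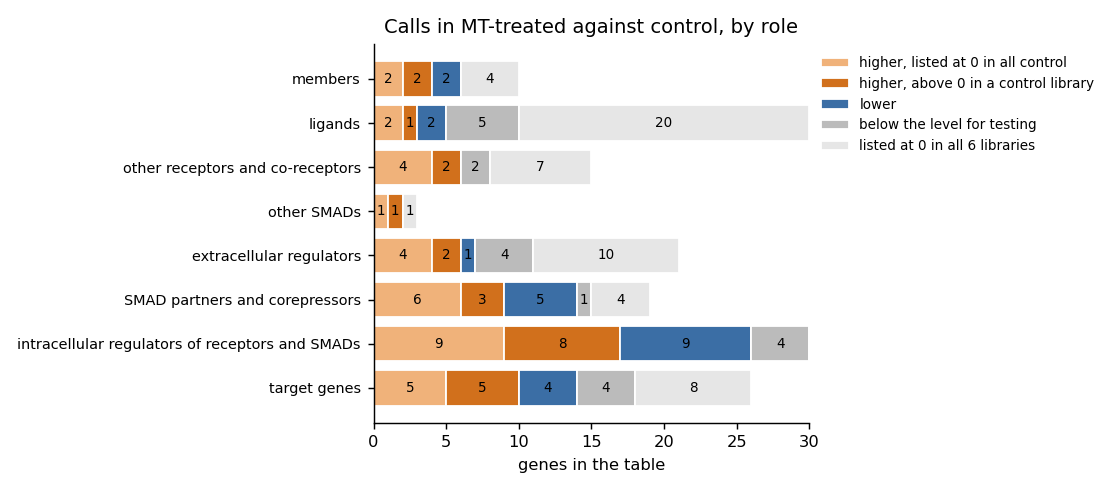
Number of genes in the table (horizontal axis) by role in the pathway, divided into those higher in MT-treated blastocysts from 0 in every control pool (light orange), those higher and above 0 in a control pool (dark orange), those lower (blue), those below the level for testing (grey) and those at 0 in all 6 pools (light grey). Most ligands, 20 of 30, were at 0 throughout, while all 30 intracellular regulators were above 0 in at least 1 library, and after quantile normalization the intracellular regulators were higher in 9 and lower in 15.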

How the data were processed

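RNA was measured in 6 libraries of bovine blastocysts, 3 control and 3 MT-treated. According to the paper and the submitters' processing notes, read quality was controlled with fastp and FastQC, STAR 2.7.9a made the alignment and featureCounts (Subread 1.6.3) the counts per gene. The paper names the build ARS-UCD1.3 and the notes name ARS-UCD1.2. The values deposited by the authors are TPM with 2 decimals, and how counts became TPM is not given in the sources used here. The depth of each library, which the paper gives in a supplement, was not used here, and no counting interval is given.

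Groups and columns were taken from the sample labels. Genes at 1 TPM or more in 3 or more libraries entered the fit as log2(TPM + 1) with limma 3.58.1 (R 4.3.3, eBayes with an intensity trend), and p-values were adjusted by Benjamini-Hochberg over all 11953 genes at a threshold of 0.05. A fold change on this scale understates the change of low genes. The fit was tested on simulated data. Tables and figures were made with Python 3.11.15, pandas 2.3.3 and matplotlib 3.10.9. Pools of a group came from separate runs, in each of which all treatments were carried out together, and replicate numbers are not stated to mark a shared run.

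The members and lists were chosen with earlier results of these data known. The lists were written from general knowledge. Named were all members and their paralogs and up to 3 rises and 3 falls with the largest fold change per list. A gene of the target list that this rule names is not reported here. ID3, SMURF1, SMURF2, SKIL, the genes named for a reversed direction, the marker genes named beside a sum and the genes named as at 0 or below the level for testing were added after their values were seen, as were the ranges of 10 to 25 and 5 to 50 TPM. Alternatives were no filter, a minimum TPM of 5, a pseudocount of 0.1, genes above 0 in all 6 libraries, quantile normalization, median centring, no trend, a replicate block and each library left out. No sequences are shown.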

Additional observations from a re-analysis of the deposited data

How the results depend on the processing

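The directions of TGFBR1, BMPR1A, SMAD4 and SMAD7 and their calls held under all 14 alternatives, with log2 fold changes from -5.81 (pseudocount 0.1) to -3.17 (median centring), from 0.66 (quantile normalization) to 5.76 (pseudocount 0.1), from -1.21 (pseudocount 0.1) to -0.70 (median centring) and from 0.66 (quantile normalization) to 3.24 (pseudocount 0.1). SMAD2 was called under all 13 that could test it, with adjusted p-values by limma up to 5.35e-05. Quantile normalization raises genes listed at 0 by its construction, for SMAD2 from 0 to 1.11 on the log2(TPM + 1) scale in control libraries. Under it the adjusted p of SMAD5 was 0.0880 by limma (2.91e-05 to 0.00254 under the others), the pathway lists held 31 higher and 36 lower genes, and 15 of the pathway genes turned direction, among them ACVR2B (log2 fold change -1.20), SMURF1 (log2 fold change -0.42) and SKIL (adjusted p = 8.93e-05 by limma). DCN (adjusted p = 0.264) and LTBP1 (adjusted p = 0.0905 by limma) were not called. With only genes above 0 in all 6 libraries, which drops genes at 0 by construction, 2 of the 10 genes were higher and 2 lower, 20 of the pathway genes were higher and 17 lower, and over all genes 2814 were higher and 3626 lower in place of 7367 and 4071. Leaving out single libraries kept all calls on the 6 genes.

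Replicate numbers showed no clear pairing of the libraries. The correlation of deviations from the group means was -0.0115, -0.000679 and 0.0588 for the same number in both groups. For different numbers it was -0.0458 to 0.0499, and not every library correlated best with its own number. As values were small for equal and unequal numbers alike, this check cannot decide whether equal numbers mark a shared run. With a replicate block, 4 of the 10 genes were higher and 2 lower, the adjusted p of SMAD5 was 0.000845 by limma, and no call on the 10 genes changed.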

Other observations

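The pathway lists held several paralog pairs in which 1 gene was lower and the other higher in MT-treated blastocysts, chosen here after their values were seen. With 61.6% of all tested genes higher and 34.1% lower, such pairs are not read as particular to the pathway. SMURF2, a ubiquitin ligase for receptors and SMADs, fell from 57.1 ± 2.95 to 26.0 ± 1.54 TPM (SD, n = 3 each), while SMURF1 had 0.09, 0.07 and 0.11 TPM in control and 5.42, 8.27 and 4.60 TPM in MT-treated libraries. SMURF1 thus made up 0.158% ± 0.0370 and 18.8% ± 4.23 of the TPM of the pair (SD, n = 3 each). SKIL, a corepressor related to SKI, was at 0 in control libraries and made up 27.5% ± 5.02 of the TPM of SKI and SKIL in MT-treated blastocysts (SD, n = 3). After quantile normalization, which raises genes listed at 0 by its construction, SMURF1 had a log2 fold change of -0.42 (limma adjusted p = 0.00791). SKIL was likewise called lower under it. Median centring kept both higher, with a log2 fold change of 3.15 for SMURF1, so the reversal was seen under quantile normalization only. CREBBP made up 73.8% ± 3.88 of the TPM of CREBBP and EP300, and GDF3 48.4% ± 1.67 of the TPM of NODAL and GDF3 in MT-treated blastocysts (SD, n = 3 each), where each control library listed EP300 and GDF3 alone of these pairs.

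The genes whose levels over the 6 libraries were most like those of SMAD4, by Euclidean distance of log2(TPM + 1) among 10095 genes with a symbol, were FUT8 (distance 0.130), USO1 (0.142) and RRP9 (0.170). FUT8 had 53.0, 54.9 and 54.9 TPM in control and 23.2, 23.8 and 24.0 TPM in MT-treated libraries.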
